A study of Mus musculus with 15 samples.

Results

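The hypoxia and glycolysis response genes described here are 10 genes named by symbol: Ankrd37, Vegfa, Pdk1, Bnip3, Egln1, Egln3, Ldha, Pgk1, Ddit4 and Hk2. The set was chosen by a measured value, the strong fall of Ankrd37 from embryonic day 16 (E16) to the day of birth (P0), and the other genes were added as members of the same known response. That fall is therefore the reason for the choice and not a result. All 10 had a row among the 21566 genes of the sorting experiment, and 8 had a row among the 10781 genes of the time series. Egln3 and Hk2 were not analysed in the time series, a table whose smallest mean was 107 normalized reads.

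The RNA came from ventral midbrain of mice of the genotype Pitx3-GFP, in which green fluorescent protein (GFP) marks cells that use Pitx3, a transcription factor gene of midbrain dopamine neurons. All 15 libraries, those of the GFP- cells included, carry that genotype, and all were purified by fluorescence-activated cell sorting. In the sorting experiment, GFP+ cells were set against GFP- cells of the same age, embryonic day 14 (E14). In the time series, GFP+ cells were taken at E14, at E16 and at P0. Each of these 5 groups held 3 libraries, and the E14 libraries of the time series are separate from the sorted ones. Midbrains of 3 litters were used, but it is not stated that each library had a litter of its own, so p-values measure the spread between these libraries, which may be technical.

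The labels name dopamine neurons as the cell type of every library, the GFP- ones too. Th, the enzyme that starts dopamine synthesis, was between 7649 and 9333 normalized reads in the GFP+ libraries and between 77.5 and 110 in the GFP- libraries, so the GFP- label was not borne out by this marker. All 10 dopamine neuron markers examined were higher in GFP+ cells, and all 10 progenitor and radial glia markers were lower. Depth ran from 17369191 to 22374153 gene reads per library in the sort and from 17910017 to 33386535 in the time series. Values below are normalized reads, meaning reads divided by 1 scaling factor per library. Replicate numbers of the sorted libraries follow the deposited values and could not be tied to single samples. The scaling factors of the sorting and time series tables were set separately, so levels are compared only within a table. In bulk RNA of this kind, fewer cells of a type and less RNA per cell cannot be told apart.

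Cells sense oxygen through prolyl hydroxylases, encoded by Egln1, Egln2 and Egln3, which use oxygen to mark the alpha subunits of hypoxia-inducible factor (HIF) for destruction by the VHL ubiquitin ligase. When oxygen is scarce the alpha subunit persists, joins its partner ARNT and binds short DNA elements beside its target genes. Among the targets are genes for blood vessel growth (Vegfa), for glycolysis (Hk2, Pgk1, Ldha), for holding pyruvate back from mitochondria (Pdk1), for removing mitochondria (Bnip3) and for restraining the growth kinase complex mTORC1 (Ddit4), besides the hydroxylase genes themselves and Ankrd37, which encodes a small ankyrin repeat protein. Several of them also have high basal expression in brain, where glycolysis supplies dividing progenitors and firing neurons.

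The promoter windows of these genes were read because all 10 are known HIF targets. The windows run from 250 bases before to 50 bases after a RefSeq gene start (build GRCm38.p6), and all 10 members matched, with 13 windows in all since Vegfa, Pdk1 and Ldha have 2 starts each. The core of the hypoxia response element was searched on both strands as 2 motifs, ACGTG and GCGTG, which can overlap each other's reverse complement. The windows of 4 members are printed here 5′ to 3′ on the strand of the gene, with every match in capitals: those of Ankrd37, which gave rise to the choice of genes, of Egln3, the member with the largest difference between sorted fractions, of Ldha, the tested member with the largest change with age, and of Pdk1, whose level differed between ages and not past the threshold between fractions.
Ankrd37, chr8:45999801-46000100, minus strand: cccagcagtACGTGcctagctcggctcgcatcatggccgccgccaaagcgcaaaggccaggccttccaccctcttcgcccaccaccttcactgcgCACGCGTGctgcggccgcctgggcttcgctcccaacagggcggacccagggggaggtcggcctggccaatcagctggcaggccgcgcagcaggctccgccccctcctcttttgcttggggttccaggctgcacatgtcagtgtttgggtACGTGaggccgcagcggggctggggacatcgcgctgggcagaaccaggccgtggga
Egln3, chr12:54203825-54204124, minus strand: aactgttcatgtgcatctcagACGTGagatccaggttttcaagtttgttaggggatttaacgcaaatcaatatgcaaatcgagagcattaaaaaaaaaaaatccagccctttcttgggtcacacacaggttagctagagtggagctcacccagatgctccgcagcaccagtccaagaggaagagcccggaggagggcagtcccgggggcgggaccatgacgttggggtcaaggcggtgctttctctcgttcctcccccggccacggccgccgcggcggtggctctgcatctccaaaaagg
Ldha, chr7:46845554-46845853, plus strand: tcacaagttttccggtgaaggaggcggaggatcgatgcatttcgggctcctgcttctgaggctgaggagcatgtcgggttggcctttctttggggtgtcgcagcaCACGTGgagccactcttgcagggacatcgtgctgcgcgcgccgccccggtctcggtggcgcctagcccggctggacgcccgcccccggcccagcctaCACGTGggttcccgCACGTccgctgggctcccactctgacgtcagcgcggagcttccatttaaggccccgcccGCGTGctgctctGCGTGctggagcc
Pdk1, chr2:71872974-71873273, plus strand: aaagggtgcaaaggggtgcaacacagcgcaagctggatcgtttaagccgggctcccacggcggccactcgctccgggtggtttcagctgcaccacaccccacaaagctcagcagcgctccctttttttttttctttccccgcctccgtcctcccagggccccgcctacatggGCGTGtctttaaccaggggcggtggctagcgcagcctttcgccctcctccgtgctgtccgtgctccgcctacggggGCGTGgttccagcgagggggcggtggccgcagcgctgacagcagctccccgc

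The Ldha window held 7 matches, 5 of them to ACGTG, and the Ankrd37 window held 4, with 2 to each motif. Every CACGTG of the Ldha window, and the CACGCGTG of the Ankrd37 window, counted on both strands. The Egln3 window held 1 match, to ACGTG, and the Pdk1 window held 2, both to GCGTG. Of the 13 windows, 11 (84.6%) held a match, against 43.8% of 32851 windows of all genes. At least 2 matches were found in 10 of the 13 (76.9%), against 20.6% of all windows. ACGTG alone was found in 9 of 13 (69.2%), against 19.6%. The other start of Pdk1 and the upstream start of Vegfa held none, which says only that these letters are not in those 300 bases. The 2 matches of Vegfa lay in the window of its downstream start. That window, like those of Ankrd37 and Ldha, lies within the annotated span of its gene. Whether matches fell in coding bases was not examined. These shares are a description, since the members were chosen as genes of a known response. Base composition was not matched, and a match is no evidence of binding.

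**Figure D1:**
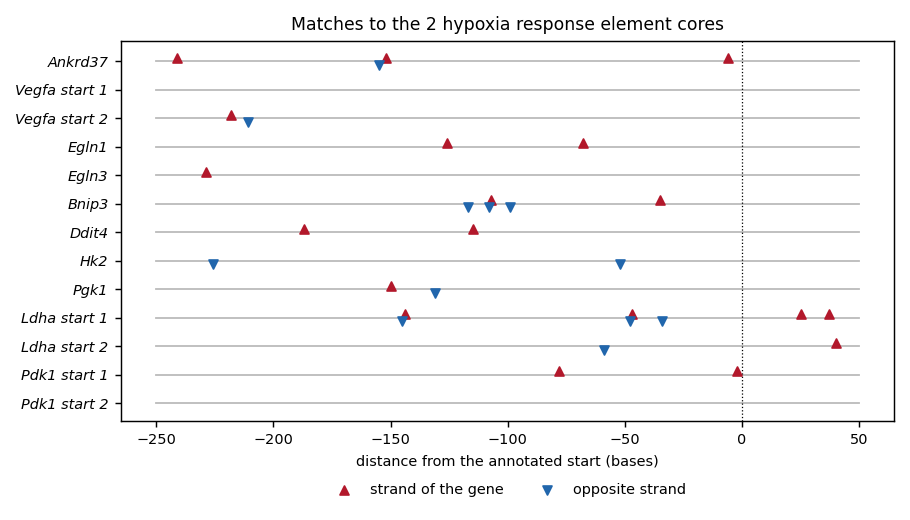
Position of each match to the 2 motifs (horizontal axis, distance in bases from the RefSeq start, dotted at the start) in the 13 windows of the 10 members (rows). Triangles pointing up are matches on the strand of the gene and triangles pointing down are on the opposite strand; the Ldha window at start 1 holds 7 and 2 windows hold none.

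The sorting experiment asks how the RNA of these genes differs between GFP+ dopamine neurons and the GFP- cells around them at E14. The fall of Ankrd37 behind the choice was measured in other libraries. Members and lists were nevertheless chosen with earlier results of these data known, so the sort is not fully independent of the choice. All 10 members passed the filter of the sort, a mean of at least 5 normalized reads. Of the 10 members, 1 was higher in GFP+ cells (Ankrd37), 4 were lower (Egln3, Hk2, Ldha and Pgk1) and 5 did not pass the threshold, an adjusted p of 0.05 in limma over 18260 genes. Of all genes tested, 30.7% passed, 12.7% higher and 18.0% lower. The median log2 difference of the members was -0.28, beside 0.02 over all genes.

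Ankrd37 (chromosome 8, 45996902 to 46005707, minus strand, GRCm38) stood at 216, 239 and 235 normalized reads in the GFP- libraries and at 483, 481 and 446 in the GFP+ libraries. Every GFP+ library was above every GFP- library. The log2 difference was 1.03 (SE 0.11, limma adjusted p = 1.71e-05), or 2.04 times the GFP- level, and stayed between 0.93 and 1.07 in every alternative fit. The gene shares 349 exon bases with Lrp2bp and 57 with Ufsp2, both on the opposite strand, and the use of strand in counting is not stated. Lrp2bp was between 1.06 and 8.38 normalized reads in the sorted libraries. Ufsp2, a protease gene, averaged 1038 ± 45.0 (SD, n = 3) in GFP- and 931 ± 59.3 (n = 3) in GFP+ cells. The part of reads from the shared bases in the Ankrd37 values was not tested.

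Among the oxygen sensors, Egln3 (chromosome 12, 54178981 to 54203860) and Egln1 (chromosome 8, 124908587 to 124949324) differed in how they split between the fractions. Egln3, whose single ACGTG is shown above, was at 102, 135 and 129 normalized reads in the GFP- libraries and at 3.59, 7.4 and 6.38 in the GFP+ libraries. The groups lay far apart, and the GFP+ level rested on a few reads per library. On the log2 scale the difference was -4.22 (SE 0.31, limma adjusted p = 9.97e-07). Adding 1 before taking log2, as in all fits here, understates changes of low genes, and the value ran from -4.39 to -3.06 with other pseudocounts, scalings and left-out libraries. Egln1 was at 1285, 1413 and 1520 in GFP- and at 1199, 1323 and 1399 in GFP+ libraries. These ranges overlapped, and the difference of -0.10 (SE 0.09) did not pass (limma adjusted p = 0.432). Per kilobase of exon, Egln1 averaged 391 normalized reads in GFP- cells and 364 in GFP+ cells, Egln2 averaged 558 and 691, and Egln3 averaged 45.9 and 2.18. Egln3 was thus the least abundant of the 3 hydroxylase RNAs in both fractions.

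Hk2 (chromosome 6, 82725025 to 82774454), an inducible hexokinase that traps glucose in the cell, was at 165, 144 and 171 normalized reads in the GFP- libraries. In the GFP+ libraries it was at 39.5, 18.5 and 23.4, all below the GFP- range. It was lower by a log2 difference of -2.58 (SE 0.26, limma adjusted p = 1.68e-05), or 0.17 times the GFP- level. Hk1, the constitutive hexokinase of brain, averaged 3386 in GFP- and 3925 in GFP+ cells and its difference of 0.23 did not pass (limma adjusted p = 0.223). Per kilobase of exon, Hk1 stood at 397 and 460 in GFP- and GFP+ cells, and Hk2 at 26.8 and 4.54.

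Ldha (chromosome 7, 46841475 to 46855627) encodes the lactate dehydrogenase subunit that favours making lactate from pyruvate. It was at 3072, 3119 and 3461 normalized reads in GFP- and at 1237, 1307 and 1257 in GFP+ libraries. The fractions were well apart, with a log2 difference of -1.34 (SE 0.08, limma adjusted p = 1.65e-07), or 0.39 times. Ldhb, the other main subunit, averaged 2652 in GFP- and 2405 in GFP+ cells and did not pass (-0.14, SE 0.09, limma adjusted p = 0.299). Per kilobase of exon Ldha was at 972 in GFP- cells and 383 in GFP+ cells, while Ldhb was at 1689 and 1532. Whether the Ldha and Ldhb differences differ from each other was not tested.

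Pgk1 (X chromosome, 106187100 to 106203699), which makes the first ATP of glycolysis, had the highest level per kilobase of exon of the 10 members in both fractions, 1654 and 1209 normalized reads. Its libraries were at 3410, 3651 and 4072 in GFP- and at 2653, 2810 and 2679 in GFP+ cells, without overlap. The log2 difference was -0.45 (SE 0.08, limma adjusted p = 0.00157). Both Ldha and Pgk1 have processed copies elsewhere in the genome, so their counts are uncertain where reads fit more than 1 place.

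The other 5 members did not pass the threshold in the sort. Vegfa (chromosome 17, 46016993 to 46032369), the main growth factor of blood vessels, was at 1478, 1526 and 1354 in GFP- and at 1429, 1269 and 1087 in GFP+ libraries, with overlap and a log2 difference of -0.21 (SE 0.10, limma adjusted p = 0.157). Without GFP+ replicate 1 it passed, at -0.30 (limma adjusted p = 0.0325), and with equal library totals it passed at -0.31 (0.0463). Ddit4 (chromosome 10, 59949669 to 59951834) ranged from 222 to 309 in GFP- and from 185 to 246 in GFP+ libraries, again overlapping, with a difference of -0.35 (SE 0.16, limma adjusted p = 0.124). It passed without GFP- replicate 1, at -0.47 (limma adjusted p = 0.0435). With a replicate block, a term for the library number in the fit, Vegfa and Ddit4 passed (limma adjusted p = 0.00938 and 0.0103).

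For Pdk1 and Bnip3 the fractions did not overlap although the test was not passed. Pdk1 (chromosome 2, 71873224 to 71903858), the kinase that switches off pyruvate dehydrogenase, was at 1031, 1092 and 1046 in GFP- and at 949, 997 and 927 in GFP+ libraries. Its difference was -0.14 (SE 0.08, limma adjusted p = 0.207), and with equal library totals -0.24 (limma adjusted p = 0.0449). Bnip3 (chromosome 7, 138890836 to 138909519), a mitophagy receptor, was at 652, 692 and 706 in GFP- and at 772, 768 and 745 in GFP+ libraries, a difference of 0.16 (SE 0.08, limma adjusted p = 0.184). It shares 504 exon bases with an antisense gene, Gm45507, and whether counting used strand is not stated. In all, the libraries of the fractions did not overlap for 7 of the 10 members, 2 higher and 5 lower, against 44.1% of all genes tested, 20.5% higher and 23.5% lower.

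**Figure D2:**
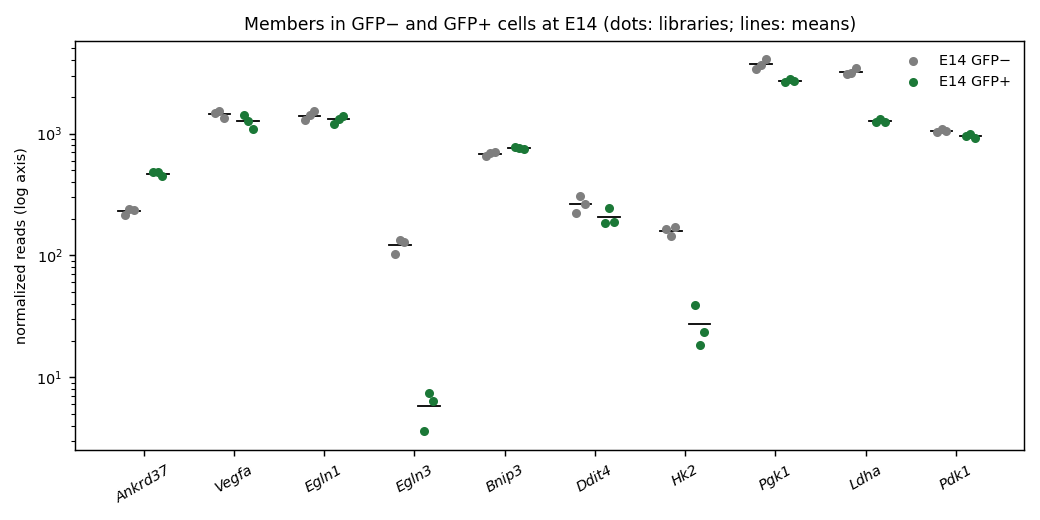
Normalized reads (vertical log axis) of the 10 members in the 3 GFP- (grey) and 3 GFP+ (green) libraries at E14; dots are libraries and short lines are group means. Ankrd37 is higher in all GFP+ libraries, whereas Egln3, Hk2, Ldha and Pgk1 are lower in all of them.

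Cell composition differed along with these values. Summed over their markers, progenitors and radial glia were at 75406 to 90047 normalized reads in GFP- and 7213 to 8778 in GFP+ libraries. Red blood cells, by 9 of 9 markers lower, were at 13855 to 15029 and at 318 to 507, and microglia, by 8 of 8 lower, were at 582 to 705 and at 40.4 to 74.9. Endothelial and pericyte markers, 10 of 11 lower, were at 1551 to 1731 and at 676 to 783. Astrocyte markers, 4 of 7 lower and 1 higher, were at 11192 to 12195 and at 7937 to 8245, and oligodendrocyte lineage markers, 5 of 7 lower, were at 3609 to 3899 and at 941 to 1633. No marker of these lists was at 0 over a group. Immediate early and dissociation genes, a sign of handling, summed to 3943 to 4154 in GFP- and 3281 to 3565 in GFP+ libraries, with 7 of 16 lower and 1 higher. The part of any of these in the member differences was not tested.

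The wider glycolysis list, 22 genes other than the members, was lower in GFP+ cells for 9 genes and higher for 2, with a median log2 difference of -0.18. Over all genes tested, 18.0% were lower and 12.7% higher, which are the shares for every list of the sort below. Aldoc, an aldolase typical of glia and progenitors, had a log2 difference of -3.91 (SE 0.16, limma adjusted p = 1.10e-08). Slc2a1, the glucose transporter of endothelium and glia, differed by -1.76 (SE 0.15, limma adjusted p = 3.96e-06), and Eno2, a neuronal enolase, by -1.06 (SE 0.17, limma adjusted p = 0.000491). Of the 2 higher genes, Pfkp, a phosphofructokinase subunit, was at 0.64 (limma adjusted p = 0.0106), a call lost without GFP- replicate 3 (0.0516). Leaving out that library brought the list to 5 lower and 1 higher.

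Other hypoxia-inducible genes were split, with 5 higher and 8 lower of 27 tested and a median of -0.12. The lower ones included Bhlhe40, a transcriptional repressor, at -2.17 (SE 0.22, limma adjusted p = 1.77e-05), and Ak4, a mitochondrial adenylate kinase, at -1.90 (SE 0.11, limma adjusted p = 1.82e-07). Among the higher ones were Narf, at 0.44 (SE 0.07, limma adjusted p = 0.000596), and Ppfia4, at 0.45 (SE 0.10, limma adjusted p = 0.00531). Members of the pathway that controls HIF were 4 higher and 2 lower of 18, but with equal library totals none was higher and 2 were lower, and without replicate 3 of either fraction 1 was higher. Cited2, which competes with HIF for its coactivators, was lower by a log2 difference of -1.20 (SE 0.13, limma adjusted p = 2.88e-05). Hif1a itself was at 6253, 5725 and 6209 in GFP- and at 6803, 6714 and 6935 in GFP+ libraries, without overlap, a difference of 0.17 that did not pass (limma adjusted p = 0.104).

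Among VEGF ligands and receptors, 1 was higher and 3 lower of 7. Nrp2, a neuropilin co-receptor, was higher by 1.10 (SE 0.08, limma adjusted p = 6.86e-07), and its relative Nrp1 was lower, at -0.77 (SE 0.10, limma adjusted p = 0.00012). Pgf, the placental growth factor gene, was lower at -1.52 (SE 0.26, limma adjusted p = 0.000884). Kdr, the main VEGF receptor gene, averaged 303 in GFP- and 351 in GFP+ cells and did not pass (limma adjusted p = 0.219). In the list for pyruvate entry and the citric acid cycle, none was higher and 6 of 20 were lower, or 2 without GFP- replicate 3 and 3 without GFP+ replicate 3.

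The time series asks how these RNAs change in GFP+ cells as dopamine neurons mature from E14 to birth. Ankrd37 was chosen for its course here, so its values are a description without a test. It was at 597, 553 and 747 normalized reads at E14, at 516, 469 and 544 at E16, and at 195, 179 and 168 at P0. The ages did not overlap, and most of the drop lay between E16 and P0, with log2 differences of -0.30 from E14 to E16 and -1.49 from E16 to P0 (SE 0.13 each). Ufsp2, which overlaps it by 57 exon bases, was not past the threshold in the time series.

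From E14 to E16, 4 of the 7 other members rose and 1 fell. Of all 10781 genes, 33.0% passed, 15.2% higher and 17.8% lower, and the median over these 7 members, Ankrd37 left out, was 0.31 beside -0.04 over all genes. From E14 to P0 the count was again 4 higher and 1 lower of 7, where 55.7% of all genes passed, 25.1% higher and 30.6% lower, with medians of 0.47 and -0.05. From E14 to E16 the libraries did not overlap for 5 of the 7 higher and 1 lower, against 46.4% of all genes, 20.3% higher and 26.1% lower. From E14 to P0 they did not overlap for 4 of the 7 higher and 1 lower, against 65.2%, with 28.9% higher and 36.2% lower. Both comparisons use the same E14 libraries, and they share libraries with the contrast by which Ankrd37 was picked. E14 to E16 uses the E16 libraries of that contrast and E14 to P0 its P0 libraries.

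Ldha changed most among the tested members. It was at 1666, 1752 and 1766 normalized reads at E14, at 3541, 3763 and 3803 at E16, and at 4016, 3753 and 5278 at P0. All E16 and P0 libraries lay above all E14 libraries, while E16 and P0 overlapped. The log2 difference was 1.10 from E14 to E16 (SE 0.10, limma adjusted p = 5.58e-06) and 1.32 from E14 to P0 (SE 0.10, limma adjusted p = 1.81e-07). P0 replicate 3 was highest for Ldha, Pgk1, Bnip3 and Pdk1, and it also had the highest Fabp7, a radial glia gene, at 3293 normalized reads against 1438 and 1081 in the other P0 libraries. Without it, the E14 to P0 difference of Ldha was 1.17 (limma adjusted p = 7.95e-08), that of Bnip3 0.72, that of Pdk1 0.78 and that of Pgk1 0.42, all still past the threshold. Ldhb averaged 3336, 3320 and 3454 at the 3 ages, and per kilobase of exon Ldha went from 522 to 1119 and 1314 while Ldhb was at 2125, 2115 and 2200.

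Pdk1 stepped up at each age. It was at 1371, 1393 and 1368 normalized reads at E14, at 1901, 1923 and 1864 at E16, and at 2497, 2236 and 2536 at P0, with no overlap between ages. Its log2 difference was 0.46 from E14 to E16 (SE 0.07, limma adjusted p = 0.000301) and 0.81 from E14 to P0 (SE 0.07, limma adjusted p = 5.68e-07). Pdk3, a relative, averaged 276, 316 and 322 and passed in neither comparison (limma adjusted p = 0.278 and 0.191). Per kilobase of exon, Pdk1 averaged 177 at E14 and Pdk3 108, and at P0 they averaged 311 and 126.

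Bnip3 was at 791, 708 and 800 normalized reads at E14, at 1010, 1106 and 907 at E16, and at 1270, 1251 and 1419 at P0. Its ages did not overlap either. Its log2 difference was 0.39 from E14 to E16 (SE 0.10, limma adjusted p = 0.00603) and 0.78 from E14 to P0 (SE 0.10, limma adjusted p = 1.09e-05). Bnip3l, the related mitophagy receptor, averaged 2647, 2292 and 2543 normalized reads at the 3 ages. It was lower at E16 by a log2 difference of -0.21 (limma adjusted p = 0.0389), and its E14 to P0 difference of -0.06 did not pass (limma adjusted p = 0.521).

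Pgk1 was at 3901, 4508 and 4484 normalized reads at E14, at 5190, 5266 and 5443 at E16, and at 5576, 5924 and 6382 at P0, again without overlap. The log2 difference was 0.31 from E14 to E16 (SE 0.08, limma adjusted p = 0.00807) and 0.47 from E14 to P0 (SE 0.08, limma adjusted p = 0.000157). Per kilobase of exon it was the most abundant of the 8 members at every age, with means of 1915, 2362 and 2656.

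Egln1 was the tested member that fell. It was at 1531, 1670 and 1729 normalized reads at E14, at 1338, 1307 and 1555 at E16, and at 1207, 1253 and 1217 at P0. E14 and E16 overlapped, and every P0 library was below every earlier one. The E14 to P0 difference was -0.42 (SE 0.09, limma adjusted p = 0.000836). The E14 to E16 difference of -0.23 (SE 0.09, limma adjusted p = 0.0491) sat at the threshold. It was lost with TMM scaling (0.0726), with equal library totals (0.0805) and when only those 2 ages were fitted (0.0680). It was also lost without E14 replicate 2 (0.138) or 3 (0.156), without E16 replicate 1 (0.123) or 2 (0.131), and without P0 replicate 1 (0.0567), 2 (0.0682) or 3 (0.0507).

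Vegfa and Ddit4 passed in neither comparison. Vegfa was at 1505, 1761 and 1647 normalized reads at E14, at 1501, 1446 and 1498 at E16, and at 1734, 1353 and 1315 at P0. The differences were -0.14 from E14 to E16 (SE 0.10, limma adjusted p = 0.311) and -0.17 from E14 to P0 (SE 0.10, limma adjusted p = 0.181), the latter becoming -0.29 (limma adjusted p = 0.0143) without P0 replicate 1. Ddit4 was at 259, 235 and 247 at E14, at 289, 273 and 261 at E16, and at 256, 229 and 237 at P0. Its differences were 0.15 (SE 0.12, limma adjusted p = 0.339) and -0.04 (SE 0.12, limma adjusted p = 0.807).

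From E16 to P0, the contrast by which the genes were chosen, 4 of the 7 members other than Ankrd37 had positive and 3 negative differences, with no test made. These ran from -0.19 for Egln1 and Ddit4 through -0.03 for Vegfa to 0.17 for Pgk1, 0.22 for Ldha, 0.35 for Pdk1 and 0.38 for Bnip3. The libraries of E16 and P0 did not overlap for 3 of these 7 higher at P0 and 2 lower. The share over all genes was 44.8%, 22.8% higher and 22.0% lower, and nothing is read from the pair of values, since the genes were chosen on this contrast.

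**Figure D3:**
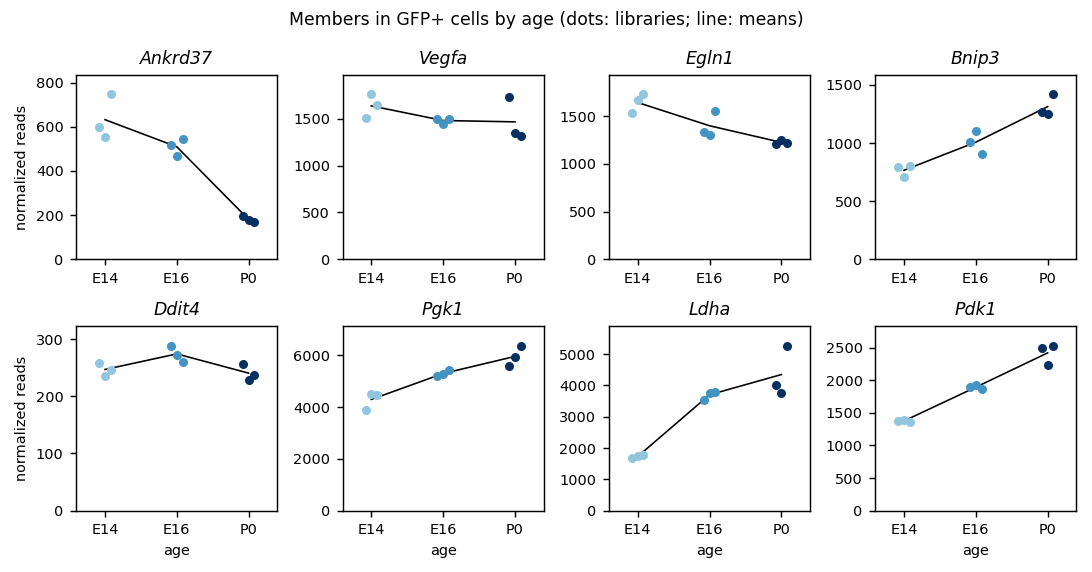
Normalized reads (vertical axes, each from 0) of the 8 members with a row in the time series, in GFP+ cells at E14, E16 and P0 (horizontal axes). Dots are the 3 libraries of an age and lines join the means; Ankrd37 drops from E16 to P0, while Ldha, Pdk1, Bnip3 and Pgk1 are higher at E16 and P0 than at E14.

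Likeness to the course of Ankrd37 is given as a description, since its E16 and P0 libraries, 6 of the 9, are those by which it was chosen. Pearson's r with Ankrd37 on log2 values over the 9 libraries was 0.850 for Egln1, 0.435 for Ddit4 and 0.426 for Vegfa, and it was -0.722 for Ldha, -0.798 for Pgk1, -0.886 for Pdk1 and -0.887 for Bnip3. The points share 3 ages and the scaling of their libraries. Among all 10781 genes, the 5 with the highest r with Ankrd37 were Trim59 (0.993), Zfp663 (0.993), 2610306M01Rik (0.989), Pcbp1 (0.988) and Csrp2 (0.986). Csrp2, a LIM domain protein gene, averaged 3909, 3392 and 1856 normalized reads at E14, E16 and P0. It was also higher in GFP+ than in GFP- cells in the sort, by a log2 difference of 0.80 (SE 0.09, limma adjusted p = 5.11e-05), and the other 4 did not pass there.

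Cell type markers in the time series changed with age too. Dopamine markers summed to 110332 to 118105 normalized reads at E14, 167677 to 175972 at E16 and 228825 to 287619 at P0, with 3 of 10 higher and 6 lower from E14 to P0. The rise of the sum came from Aldh1a1, an aldehyde dehydrogenase gene, which averaged 20609, 85947 and 167996. The other 9 summed to 87465 to 99690 at E14, 79769 to 89279 at E16 and 77176 to 109170 at P0, with overlap between E14 and P0. The 3 progenitor and radial glia markers with a row summed to 4047 to 4306, 2737 to 3128 and 2202 to 4403, with Vim and Nes lower and Fabp7 higher at P0. Astrocyte markers had 1 row (Slc1a2), at 8053 to 9334, 7207 to 8119 and 6045 to 6680, and oligodendrocyte lineage markers had 2 rows, at 471 to 509, 522 to 587 and 589 to 733. Microglial, endothelial and red blood cell markers had no row and were not analysed here. The part of these shifts in the member changes was not tested.

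The glycolysis list moved up with age for 11 of 19 genes from E14 to E16, with 1 lower, and for 11 of 19 from E14 to P0, with 2 lower. Its median log2 differences were 0.32 and 0.24. Of all genes, 15.2% were higher and 17.8% lower from E14 to E16, and 25.1% and 30.6% from E14 to P0. Eno2 was higher at P0 by 1.88 (SE 0.12, limma adjusted p = 3.21e-08), Pfkp by 1.55 (SE 0.11, limma adjusted p = 5.78e-08) and Slc2a3, the neuronal glucose transporter, by 1.52 (SE 0.10, limma adjusted p = 2.25e-08). Pfkfb3, which makes the activator of phosphofructokinase, was lower by -0.58 (SE 0.10, limma adjusted p = 0.000225), and Pkm, pyruvate kinase, by -0.36 (SE 0.09, limma adjusted p = 0.00423). From E16 to P0, 5 of these genes rose and 3 fell, where 33.4% of all genes passed, 16.8% higher and 16.6% lower.

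**Figure D4:**
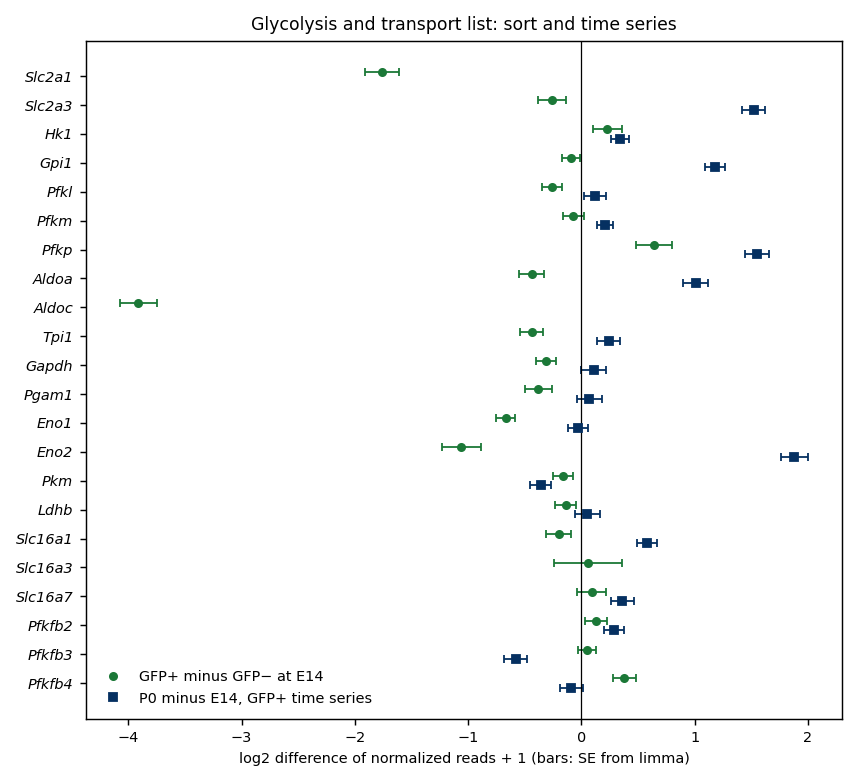
Log2 differences (horizontal axis, normalized reads + 1, bars are SE from limma) of the glycolysis and transport genes that are not members (rows), for GFP+ minus GFP- at E14 (green circles) and for P0 minus E14 (blue squares). Aldoc and Slc2a1 are farthest to the left in the sort, and Eno2, Pfkp and Slc2a3 farthest to the right with age.

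Enzymes that bring pyruvate into mitochondria were higher at P0 than at E14 for 5 of 18 genes and lower for 2 (median 0.11), where 25.1% of all genes were higher and 30.6% lower, so the share higher was near that of all genes. Pdha1, the subunit of pyruvate dehydrogenase that Pdk1 phosphorylates, was higher by 0.72 (SE 0.08, limma adjusted p = 2.83e-06). Dlat, another subunit of that complex, was higher by 0.57 (SE 0.08, limma adjusted p = 4.57e-05), and Mpc1, of the pyruvate carrier, by 0.55 (SE 0.09, limma adjusted p = 0.000149). From E14 to E16, 4 were higher and none lower, or 7 and none with TMM scaling or equal library totals. Of all genes, 15.2% were higher and 17.8% lower from E14 to E16 in the main fit.

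Other hypoxia-inducible genes did not share 1 direction with age. From E14 to P0, 4 of 17 rose and 9 fell, with a median of -0.37, and from E14 to E16 5 rose and 6 fell. Of all genes, 25.1% were higher and 30.6% lower from E14 to P0, and 15.2% and 17.8% from E14 to E16. The share that rose to P0 was near that of all genes. Ndrg1 was higher at P0 by 1.61 (SE 0.25, limma adjusted p = 9.44e-05), Ppfia4 by 1.21 (SE 0.10, limma adjusted p = 2.05e-07) and Ak4 by 1.16 (SE 0.11, limma adjusted p = 1.19e-06). Ccng2, a cyclin that restrains division, was lower by -1.24 (SE 0.09, limma adjusted p = 1.12e-07), Kdm3a, a histone demethylase, by -1.01 (SE 0.10, limma adjusted p = 1.26e-06) and Plod2, a collagen-modifying enzyme, by -0.87 (SE 0.13, limma adjusted p = 5.20e-05).

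Genes that control HIF were lower at P0 than at E14 for 8 of 16 and higher for 2 (median -0.25), and at E16 than at E14 for 4 and 0. Over all genes, 30.6% were lower and 25.1% higher at P0, and 17.8% and 15.2% at E16. Hif1a was at 7426, 7471 and 7666 normalized reads at E14, at 6009, 5385 and 6049 at E16, and at 4429, 5156 and 4937 at P0. Its libraries did not overlap between ages, and the E14 to P0 difference was -0.64 (SE 0.08, limma adjusted p = 8.57e-06). Egln2 was lower by -0.48 (SE 0.11, limma adjusted p = 0.00154), beside Egln1 above, and Vhl by -0.25 (SE 0.09, limma adjusted p = 0.0279). P4htm, a membrane-bound prolyl hydroxylase, was higher by 0.60 (SE 0.14, limma adjusted p = 0.00207). Arnt and Hif1an did not pass (limma adjusted p = 0.761 and 0.608). Arnt2, also of this list, was lower by -0.45 (SE 0.07, limma adjusted p = 8.94e-05). At E14 it averaged 4527 normalized reads, and Arnt averaged 503.

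**Figure D5:**
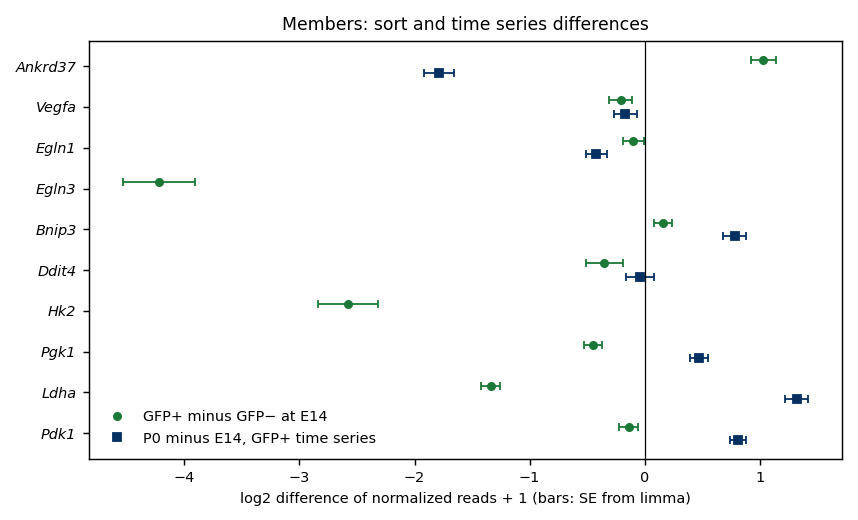
Log2 differences (horizontal axis, normalized reads + 1, bars are SE from limma) of the 10 members (rows) for GFP+ minus GFP- at E14 (green circles) and for P0 minus E14 in the time series (blue squares, absent for Egln3 and Hk2). Ankrd37 lies to the right in the sort and to the left with age, and Ldha and Pgk1 lie to the left in the sort and to the right with age.

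Side by side, Ankrd37 was 1.03 higher in GFP+ cells and -1.79 from E14 to P0, whereas Ldha was -1.34 and 1.32, and Pgk1 -0.45 and 0.47. The sort and the time series share no library. The authors' deposited table gave log2 fold changes within 0.02 of these fits for the members, apart from Egln3, for which it gave -4.37.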

How the data were processed

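Ribosome-depleted total RNA (miRNeasy micro, Ribo-Zero, ScriptSeq v2) was sequenced from 15 libraries. The authors deposited normalized reads per gene, treated as signal. Tools and builds named in the submitters' processing notes are TopHat2 and Trim Galore, DESeq2, and GRCm38 or mm10. How reads were counted, and whether by strand, is not given in the sources used here. Log2 fold changes and p-values of the authors' own test are in the deposited tables, used only to compare sizes. Dividing by the step between values gave whole reads within 0.1 for 100% of values, and so the depth.

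Genes with a mean of at least 5 entered limma-trend (R 4.3.3, limma 3.58.1) on log2(normalized reads + 1), two-sided and adjusted by Benjamini-Hochberg over all genes. The sort was fitted alone and the 9 time series libraries together. As an alternative, edgeR 4.0.16 (quasi-likelihood) on the recovered reads of the sort called 5541 genes, beside 5599. The fits were tested on simulated data. Other alternatives were TMM scaling, equal library totals, pseudocounts of 0.5 and 10, a minimum mean of 200, a replicate block and each library left out. Levels per kilobase use GENCODE M21 exons.

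The members and lists were chosen with earlier results of these data known. Each list could name up to 3 genes per direction that passed with a mean of 50 or more, the largest changes first. The 5 genes most like Ankrd37 were named by their correlation with it. Relatives of members, overlapping genes, Hif1a, Vhl, Arnt, Arnt2, Hif1an, Kdr, Atf4, Ddit3, Asns, Vldlr and single markers were named after their values were seen.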

Additional observations from a re-analysis of the deposited data

Results flagged for a closer look

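Circular RNAs were counted by the authors apart from genes, and Egln1 was the sole member with any in the tables used here. In the time series, circ_03514_Egln1 held 6 reads over the 9 libraries, and it was flagged because this sum was above 3 reads. E14 replicate 3 had 2 of these reads and P0 replicate 2 had 4, and the other 7 libraries were at 0. In the sorted GFP- libraries circ_03046_Egln1 held 3 reads in replicate 1 and 0 in the other two. Libraries held 10498 to 33061 circular RNA reads in all, and the ages were not compared for so few reads.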

How the results depend on the processing

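No member that passed changed direction under any alternative run. In the sort, 5599 genes and 5 members passed. With a minimum mean of 200, 2945 genes and 3 members passed, because Egln3 and Hk2 were then not tested. With equal library totals, 1559 genes were higher and 4020 lower, against 2313 and 3286, so 27.9% of calls were higher in place of 41.3%. Leaving out 1 library at a time gave 4185 to 5773 genes and 5 to 6 members in the sort, 2706 to 3722 genes and 4 to 5 members from E14 to E16, 5212 to 6356 genes and 5 to 6 members from E14 to P0, and 2496 to 3660 genes from E16 to P0. Whether replicate numbers pair the sorted libraries is not settled. Same-numbered sorted libraries correlated at 0.367, 0.12 and 0.0976 after removal of group means, and differently numbered ones at -0.297 to 0.229. The main fits used no pairing. With the replicate block, 8466 genes and 7 members passed in the sort, with Vegfa (-0.21, limma adjusted p = 0.00938) and Ddit4 (-0.35, 0.0103) added to the 5, and 3620, 6098 and 3757 genes in E14 to E16, E14 to P0 and E16 to P0. edgeR with the replicate block, a choice made after seeing the data, gave 8467 genes and 8 members, with Vegfa (edgeR adjusted p = 0.00334), Ddit4 (0.00566) and Pdk1 (0.0421) added. Genes below a mean of 107 were not analysed in the time series, and Egln3 in GFP+ cells rested on a few reads.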

Other observations

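The integrated stress response shares Ddit4 with the hypoxia response among its known targets. Its genes were lower in GFP+ than in GFP- cells for 5 of 11 and higher for none (median log2 difference -0.63). Over all genes, 18.0% were lower and 12.7% higher. Among those that did not pass were Atf4, Ddit3, Asns and Vldlr (limma adjusted p = 0.627, 0.343, 0.438 and 0.161). Phgdh, the first enzyme of serine synthesis, averaged 2194 in the GFP- libraries and 144 in the GFP+ libraries (normalized reads), a difference of -3.92 (SE 0.10, limma adjusted p = 6.51e-10). Psat1, the next enzyme, differed by -2.61 (SE 0.08, limma adjusted p = 2.01e-09), and Slc7a11, a cystine transporter, by -2.07 (SE 0.17, limma adjusted p = 2.59e-06). From E14 to P0, 4 of 7 rose and 1 fell, where 25.1% of all genes were higher and 30.6% lower. Phgdh was at 0.85 (SE 0.16, limma adjusted p = 0.000355) and Asns, asparagine synthetase, at 0.82 (SE 0.11, limma adjusted p = 2.52e-05).

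Mitophagy and autophagy genes, the pathway of Bnip3, were higher at P0 than at E14 for 6 of 12 and lower for 2, or 3 and 2 without E14 replicate 3. Optn, an autophagy receptor, was higher by 1.16 (SE 0.10, limma adjusted p = 5.31e-07). Over all genes 25.1% were higher and 30.6% lower. In the sort 1 of 12 was lower and none higher, and that call, of Pink1, was lost without GFP- replicate 2 or 3 or GFP+ replicate 1 or 3. In the mTORC1 list, the pathway that Ddit4 restrains, 3 of 10 rose and 1 fell from E14 to P0, near or below the shares over all genes (25.1% higher, 30.6% lower), or 2 and 0 without E14 replicate 2 and 1 and 1 without P0 replicate 3. Sesn3, another inhibitor of mTORC1, was higher by 1.11 (SE 0.08, limma adjusted p = 5.42e-08).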
